A study of Mus musculus with 830 samples.

Results

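The machinery that brings new proteins into the endoplasmic reticulum (ER) and folds them there was followed through 33 genes in single cells of the mouse embryonic endoderm and gut. The 33 genes were listed by name, and each was matched by its symbol among the 26313 genes of the deposited count table. They fall into 7 roles: 5 regulators of the unfolded protein response, 9 chaperones and their helpers, 4 disulfide enzymes, 1 degradation factor, 8 parts of the targeting and translocation machinery, 4 subunits of signal peptidase and 2 retrieval receptors. All 33 passed the filter on low counts in every edgeR comparison below. The list was put together with an earlier look at these cells in view, in which such genes were higher where hormone reads were higher, so the counts in the hormone comparisons describe genes chosen with that pattern known.

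Hormones and other secreted proteins are pulled through the Sec61 channel into the ER while they are made, signal peptidase removes their leader, and BiP (Hspa5), calreticulin and the protein disulfide isomerases fold them. When unfolded protein builds up, the sensors IRE1, ATF6 and PERK raise the output of these genes through the factors XBP1, cleaved ATF6 and ATF4. Professional secretory cells, endocrine cells among them, carry a large ER and much of this machinery.

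The 830 cells came from C57BL/6XC3H embryos, were stained for the epithelial surface protein EpCAM, sorted without dead cells and sequenced in plates by Smart-seq3xpress. Ngn3Cre cells (333) carry Ngn3-Cre with Ai6, a reporter that stays on in the descendants of cells in which the Cre acted, and came from embryos of 18, 21, 24 and 27 somites. HM cells (171; Ngn3-GFP/GFP, GFP on both alleles) and HZ cells (326; Ngn3-GFP/+, GFP on 1 allele) came from 15, 18, 21, 24 and 27 somites. All groups thus carry an allele named for Ngn3 (Neurog3), the factor that starts endocrine differentiation, and no cells without one were analysed here. The labels do not say whether cells were gated on a reporter or how many embryos gave a pool. No embryo is named in the labels, so the reads of all cells of a genotype and stage were summed into 1 pool, and the 11 pools of at least 10 cells are the samples: 3 Ngn3Cre, 4 HM and 4 HZ pools. In comparisons of genotypes, fitted with stage as a factor, p-values measure how much the difference varies from stage to stage. In comparisons of cells within a pool, fitted with pool as a factor, they measure how much the difference varies from pool to pool. For trends with stage they measure the spread of pools around the fitted line.

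Cells held 1400 to 2525083 reads (median 452597), and the tested pools 8299225 to 70763553 reads. Neurog3, the check of the labels, was at 6.18 to 11.1 CPM (counts scaled to the total of the pool, TMM scaling) in HM pools, against 79.4 to 132 CPM in HZ pools (log2 fold change -3.69 ± 0.44 (SE), edgeR adjusted p = 0.00336). All 4 epithelial markers (Epcam, Cdh1, Krt8, Krt18) were read in every pool, with a summed level of 864 to 1748 CPM in Ngn3Cre, 2617 to 3995 CPM in HM and 676 to 3190 CPM in HZ pools. The 7 hepatic markers summed to 50.1 to 109 CPM in Ngn3Cre, 77.5 to 8206 CPM in HM and 52.9 to 4217 CPM in HZ pools, and the 6 markers of neural crest and neurons to 942 to 2143, 1.47 to 627.5 and 397 to 1150.3 CPM in the same order. The summed level of 12 hormone genes (Gcg, Ghrl, Pyy, Ppy, Iapp, Ins1, Ins2, Sst, Cck, Gip, Gast and Sct) was 11724 to 23888 CPM in Ngn3Cre, 62.8 to 536 CPM in HM and 593 to 14862 CPM in HZ pools.

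The letters near the start sites of these genes show what several share outside their expression. The ER stress response element (ERSE: CCAAT, 9 bases of any kind, then CCACG), bound by ATF6 together with NF-Y, was searched on both strands of the window of 250 bases before to 50 after each start, in RefSeq sequences of GRCm38.p6. It stood in 7 of the 27 members with a promoter sequence (Calr, Canx, Creld2, Dnajc3, Hsp90b1, Hspa5 and Pdia6), against 0.137% of all 27025 genes with such a window. ERSE-II (ATTGG, 1 base of any kind, then CCACG) stood in Herpud1 alone among the members and in 0.0444% of all genes. The core TGACGTG, a binding sequence of XBP1 and ATF6, stood in Hspa5 and Kdelr3 and in 2.22% of all genes, and the core TTGCATCA, bound by ATF4 with C/EBP factors, in Herpud1 and in 1.03%. The TGACGTG and TTGCATCA matches overlapped no ERSE. A match says only that these letters are present. The members were listed by name, so their share beside that of all genes is a description and no test. Manf, Sec61a1, Ssr2, Spcs3, Sec11c and Kdelr2 are named only.

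Of the windows printed here, those of Hspa5, Herpud1 and Creld2 belong to genes that were higher in hormone-high cells and that of Pdia6 to a gene that was not, so that the same element can be read beside both outcomes. Each is 5′ to 3′ on the plus strand, which is the strand of these genes, and capitals mark the matches.
Hspa5, chr2:34771840-34772139: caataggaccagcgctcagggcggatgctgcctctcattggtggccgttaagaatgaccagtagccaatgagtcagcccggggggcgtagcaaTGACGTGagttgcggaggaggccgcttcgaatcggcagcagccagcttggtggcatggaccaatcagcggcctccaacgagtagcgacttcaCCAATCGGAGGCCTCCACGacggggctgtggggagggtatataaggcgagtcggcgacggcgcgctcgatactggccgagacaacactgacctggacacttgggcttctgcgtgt
Herpud1, chr8:94386179-94386478: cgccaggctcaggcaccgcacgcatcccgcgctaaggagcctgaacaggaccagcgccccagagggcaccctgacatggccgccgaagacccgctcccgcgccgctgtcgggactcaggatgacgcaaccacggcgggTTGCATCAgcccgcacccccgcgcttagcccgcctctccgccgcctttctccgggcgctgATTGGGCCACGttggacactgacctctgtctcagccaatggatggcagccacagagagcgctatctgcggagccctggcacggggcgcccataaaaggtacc
Creld2, chr15:88819396-88819695: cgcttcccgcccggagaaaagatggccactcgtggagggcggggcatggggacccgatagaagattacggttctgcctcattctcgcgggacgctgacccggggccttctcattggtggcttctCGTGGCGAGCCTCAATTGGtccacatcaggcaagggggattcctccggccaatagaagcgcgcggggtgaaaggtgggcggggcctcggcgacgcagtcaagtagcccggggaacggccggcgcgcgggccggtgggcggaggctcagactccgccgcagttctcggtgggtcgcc
Pdia6, chr12:17266339-17266638: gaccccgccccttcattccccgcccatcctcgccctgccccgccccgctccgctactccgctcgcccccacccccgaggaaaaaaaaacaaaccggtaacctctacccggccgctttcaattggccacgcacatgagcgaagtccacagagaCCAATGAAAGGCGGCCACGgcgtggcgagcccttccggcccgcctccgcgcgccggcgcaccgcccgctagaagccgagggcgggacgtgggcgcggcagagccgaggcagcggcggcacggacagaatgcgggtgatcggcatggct

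In Hspa5 the ERSE begins 65 bases upstream of the start and the TGACGTG core 157 bases upstream. Herpud1 holds ERSE-II at 52 bases and the ATF4-C/EBP core at 112 bases upstream. The ERSE of Creld2 lies 126 bases upstream in the reverse direction, and that of Pdia6 98 bases upstream. The other matches, shown because they carry the same element with other spacer letters, are these.
Calr: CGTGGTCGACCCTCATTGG
Canx: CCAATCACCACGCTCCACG
Dnajc3: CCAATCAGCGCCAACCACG
Hsp90b1, distal: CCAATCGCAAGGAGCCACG
Hsp90b1, proximal: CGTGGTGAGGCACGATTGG

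The 33 genes covered a wide range of levels. Per length, on the authors' TPM scale averaged over the cells of a pool, Sec61b, a small subunit of the channel, led with 761 ± 75.2 TPM (SD, n = 11 pools). Calr, a calcium-binding lectin chaperone, followed at 630.1 ± 193 TPM, and Kdelr2, a receptor that returns escaped ER proteins from the Golgi, at 610.2 ± 168 TPM. Hspa5, the central Hsp70 chaperone of the ER, had 574 ± 194 TPM and Hsp90b1 (GRP94), its Hsp90 partner, 464 ± 71.2 TPM. At the low end stood Sec11c, a catalytic subunit of signal peptidase, with 18.1 ± 10.4 TPM, Creb3l2, a membrane-bound factor of secretory cells, with 7.6 ± 3.15 TPM, and Trib3, a pseudokinase induced by ATF4 and CHOP, with 3.16 ± 2.81 TPM. Of the 32 neighbouring pairs in the order of levels, 4 differed by more than the larger of their SDs: Ssr4 and Sec61a1, Xbp1 and Herpud1, Sec11c and Creb3l2, and Creb3l2 and Trib3. The order among the other neighbours is not resolved. Sec61b and Sec61g have near-identical copies elsewhere in the genome, and Spcs2 has a copy of 95.8% identity, so their levels are uncertain, as are stretches of Hsp90b1, Manf, Sec61a1 and Spcs1 that overlap another gene.

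**Figure D1:**
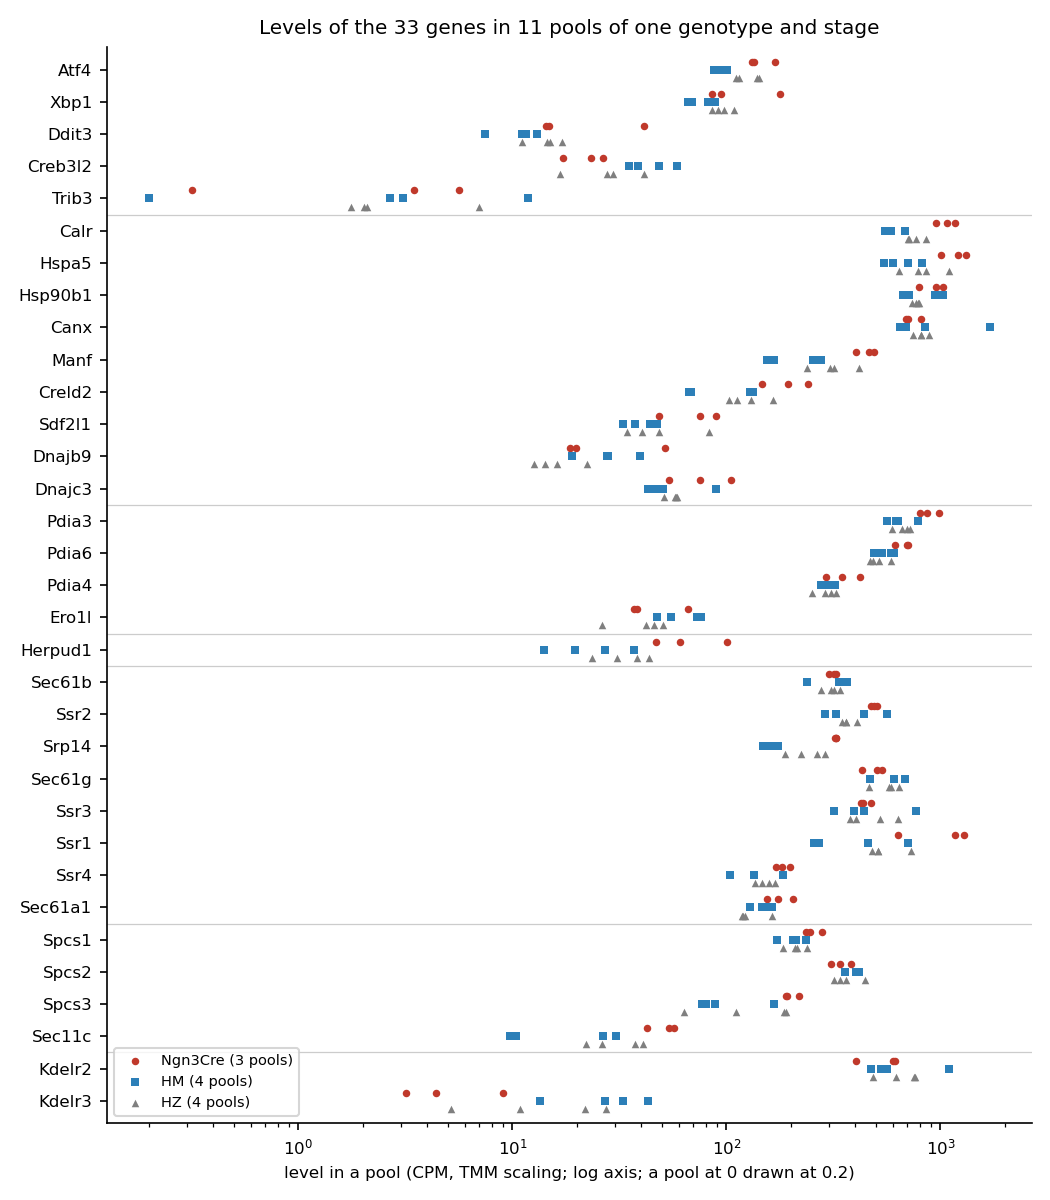
CPM (TMM scaling, log axis) of the 33 genes in each of the 11 pools, 1 point a pool, with Ngn3Cre, HM and HZ on separate lines and the roles divided by grey rules. Srp14 in the 3 Ngn3Cre pools (321 to 326 CPM) lies above all HM and HZ pools, and the 4 HM pools (149 to 175 CPM) lie below the 4 HZ pools (188 to 288 CPM).

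Between pools, Spcs2 kept within 308 to 445 CPM, while Kdelr3 spread over 3.18 to 42.9 CPM and Herpud1 over 14.0 to 101 CPM. The HM pool of 15 somites, 16 cells, was the highest of all 11 pools for Canx (1703 CPM, against 645 to 885 CPM in the other pools), Ssr3, Kdelr2 and Kdelr3. Trib3 had no read in that pool.

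Cells with many hormone reads were compared with cells of the same pool with few, which asks whether the secretory machinery goes with hormone output cell by cell. Hormone-high cells, here with a summed level of 5000 CPM or more over the 12 hormone genes, had more of 14 of the 33 members than hormone-low cells, under 500 CPM, and less of none (42.4% called in edgeR at an adjusted p of 0.05, against 9.2% of all 15383 genes tested called higher and 9.86% called lower, 19.1% in all). The largest rise was that of Sec11c, and chaperones, the signal recognition and translocon-associated proteins and signal peptidase were all among the genes that rose, while none of the 5 regulators passed. The median log2 difference was 0.38 over the members and 0.01 over all genes. The 5 pools with at least 10 cells of both kinds entered: 28 high and 63 low cells in HZ of 21 somites, 43 and 25 in HZ of 24, 10 and 11 in HZ of 27, 47 and 17 in Ngn3Cre of 21 and 94 and 20 in Ngn3Cre of 24 somites. The classes are ranges of a per-cell value and not cell types: 45 cells lay within 20% of the lower limit and 35 within 20% of the upper.

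Among the processing subunits, Sec11c stood at 41.7, 65.6, 85.8, 65.3 and 75.8 CPM in hormone-high cells (HZ of 21, 24 and 27 and Ngn3Cre of 21 and 24 somites, an order kept below) and at 17.1, 10.4, 14.8, 12.7 and 12.6 CPM in hormone-low cells. Each high value exceeded all 5 low values. Its log2 fold change was 2.29 ± 0.28 (SE; edgeR adjusted p = 0.000783). Spcs3, a noncatalytic subunit, had 221, 243, 274, 237 and 246 CPM in hormone-high cells, against 69.1, 116, 155, 118 and 156 CPM in hormone-low cells (1.05 ± 0.18, edgeR adjusted p = 0.0034). The other noncatalytic subunits did not pass, with log2 fold changes of 0.38 ± 0.13 for Spcs1 (adjusted p = 0.0749) and -0.06 ± 0.16 for Spcs2. Signal peptidase was thus higher through 2 of its 4 listed genes.

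In targeting and translocation, 4 of 8 genes rose. Srp14, an RNA-binding part of the signal recognition particle that halts the ribosome, had 373, 302, 415, 395 and 385 CPM in hormone-high cells, against 208, 141, 206, 234 and 201 CPM in hormone-low cells (0.93 ± 0.13, edgeR adjusted p = 0.00134). The pools did not overlap between the classes. Subunits of the translocon-associated complex, which sits at the channel and helps chosen proteins in, rose as well, with log2 fold changes of 0.95 ± 0.16 for Ssr4, 0.81 ± 0.14 for Ssr1 and 0.56 ± 0.14 for Ssr2. Their partner Ssr3 was at -0.17 ± 0.18. None of the channel subunits passed: Sec61a1, the pore, was at -0.20 ± 0.16, Sec61b at 0.08 ± 0.13 and Sec61g at -0.25 ± 0.11 (adjusted p = 0.158). Sec61g had 484, 437, 542, 418 and 496 CPM in hormone-high cells, against 648, 494, 589, 497 and 604 CPM in hormone-low cells, lower in 5 of 5 pools without passing the test.

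Of the chaperones and their helpers, 6 of 9 rose. Hspa5 had 1496, 1191, 1410.3, 1824 and 1345 CPM in hormone-high cells, against 672, 567, 858, 911 and 1202 CPM in hormone-low cells (0.82 ± 0.15, edgeR adjusted p = 0.00518). The Ngn3Cre pool of 24 somites had the smallest of these differences and the others were all larger. Calr rose by 0.82 ± 0.13, Hsp90b1 by 0.50 ± 0.11 and Dnajc3 (p58IPK), a co-chaperone of BiP, by 0.86 ± 0.20. A pair of small secretory-pathway proteins that are induced by ER stress rose as well, and differences between chaperones were not tested. Manf, which is retained in the ER and also secreted, had 546, 449.9, 599, 664 and 564 CPM in hormone-high cells, against 275, 162, 309, 337 and 415 CPM in hormone-low cells (0.97 ± 0.16, edgeR adjusted p = 0.0028). Creld2 had 217, 174, 278, 340.4 and 241 CPM in hormone-high cells, against 95.1, 67.0, 96.4, 163 and 145 CPM in hormone-low cells (1.18 ± 0.16, edgeR adjusted p = 0.00131). Canx, the membrane-bound sister of calreticulin, was at 0.16 ± 0.11, Sdf2l1 at 0.22 ± 0.34 and Dnajb9 (ERdj4), a BiP co-chaperone, at -0.10 ± 0.32.

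Herpud1, which gathers the degradation complex at the ER membrane, had 84.3, 65.6, 44.3, 143 and 54.0 CPM in hormone-high cells, against 22.5, 10.7, 29.3, 67.6 and 39.0 CPM in hormone-low cells. It was higher in 5 of 5 pools, with a log2 fold change of 1.32 ± 0.33 (edgeR adjusted p = 0.0204), and the classes overlapped across pools. Among the disulfide enzymes, Pdia3, which works with the lectin chaperones, rose by 0.43 ± 0.13 (edgeR adjusted p = 0.0428), while Pdia4 (0.31 ± 0.17), Pdia6 (0.13 ± 0.18) and Ero1l (0.84 ± 0.37), the oxidase that recharges them, did not pass.

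The regulators showed no common direction. Xbp1, whose spliced mRNA encodes the IRE1 branch factor, was at -0.05 ± 0.23 and Atf4, the factor of the PERK branch, at -0.38 ± 0.20; the counts do not tell the spliced form of Xbp1 from the unspliced one. Ddit3 (CHOP) was at 0.33 ± 0.38, Trib3 at 1.35 ± 0.83 and Creb3l2 at -0.52 ± 0.40. Of the retrieval receptors, Kdelr2 was at 0.23 ± 0.12 and Kdelr3 at -2.37 ± 0.84 (adjusted p = 0.0796). Kdelr3 had 7.88, 5.17, 0, 6.88 and 1.64 CPM in hormone-high cells, against 31.7, 14.9, 6.97, 7.47 and 19.7 CPM in hormone-low cells, lower in 5 of 5 pools. DESeq2 called it lower, as it did 15.7% of genes, and so did limma on means over cells of log2(CPM + 1), with 17.2% of genes.

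**Figure D2:**
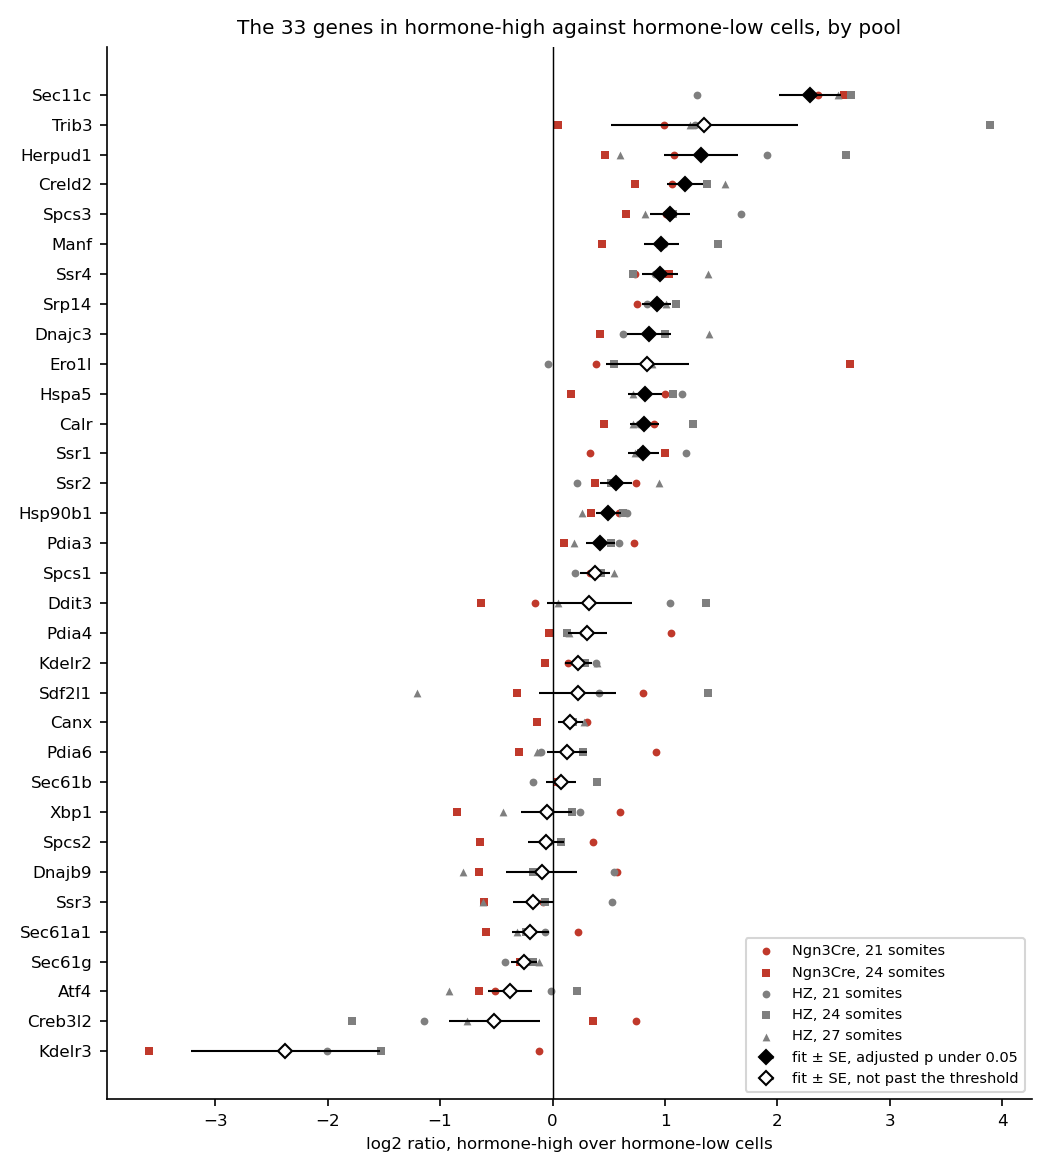
Log2 ratio of hormone-high over hormone-low cells for the 33 genes in each of the 5 pools (points) with the edgeR estimate ± SE over pools (diamonds, filled where the adjusted p is under 0.05). The 14 filled genes lie right of 0 in all 5 pools, from Pdia3 at 0.43 to Sec11c at 2.29, and Kdelr3 is left of 0 in every pool with a value (no ratio can be drawn for its pool with 0 reads).

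The count depended on where the classes were set. At the limits chosen first, under 200 and 2000 CPM or more with 10 cells each, only the HZ pools of 21 and 24 somites qualified, and 23 of 33 members were higher and 3 lower in hormone-high cells in both. How many of all genes kept 1 direction in both pools was not counted. A fit on these 2 pools, added after the data were seen and with 1 residual degree of freedom, called 12 members higher (9.98% of genes) and 2 lower, Creb3l2 and Kdelr3 (10.4%). With 5 cells each at these limits, which brought in HZ of 18 and 27 and Ngn3Cre of 24 somites, 2 members rose (Sec11c and Srp14, against 3.66% of all genes). In the HZ pool of 18 somites, where only 6 cells were hormone-high, the median log2 ratio over members was -0.22, against 0.43, 0.55, 0.30 and -0.02 in HZ of 21, 24 and 27 and Ngn3Cre of 24 somites. At 100 and 1000 CPM, in 3 pools, Spcs3 rose and Creb3l2 fell (4.36% and 3.77% of all genes). Without the HZ pool of 24 somites, 9 members rose at 500 and 5000 CPM (6.2% of genes).

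Other cells stood among the hormone-low ones. The 7 hepatic markers summed to 53.7 to 109 CPM in hormone-high and 14.0 to 2183 CPM in hormone-low cells, the 6 markers of neural crest and neurons to 80.1 to 712 and 188 to 2134 CPM, and the 5 mesenchymal markers to 1.15 to 24.3 and 1.30 to 844 CPM, while the 6 endocrine markers summed to 3015 to 4153 and 169.9 to 1534 CPM. Without cells of 1000 CPM or more over the hepatic, neural, mesenchymal, endothelial and blood markers, 2 pools kept both classes, HZ of 21 and 24 somites, and in a fit with 1 residual degree of freedom 13 members rose and Creb3l2 fell (7.38% and 8.64% of genes). The share of these cells in the remaining difference was not tested. Depth differed as well, with medians of 235921 to 604034 reads in hormone-high and 351233 to 665977 reads in hormone-low cells of the 5 pools, and 14 members rose among cells of at least 100000 reads and 2000 genes (9.15% of genes). In summed counts, fewer cells of a kind and less RNA per cell cannot be told apart.

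Across finer steps of hormone level some members were higher at each step and others were not. In HZ cells of 24 somites, with hormone genes left out of the total, Sec11c was at 9.04 CPM in cells under 200 hormone CPM, 16.0 CPM at 200 to 2000, 49.7 CPM at 2000 to 20000 and 96.6 CPM at 20000 or more. Hspa5 was at 576, 665, 949.8 and 1608 CPM over the same steps. Kdelr3 was at 19.3, 13.4, 7.66 and 0.417 CPM. In this pool 11 members (33.3%, against 7.88% of 15383 genes) were higher at each step and 1, Kdelr3, was lower at each (10.1% of genes). In HZ of 21 somites, over 3 ranges up to 20000 CPM, 11 members were higher at each step (33.3%, against 25.0% of genes) and 5 lower (23.1% of genes). In Ngn3Cre pools of 21, 24 and 27 somites, over 3 ranges from 200 CPM upward, 15, 20 and 17 members were higher at each step (45.5%, 60.6% and 51.5%, against 18.0%, 27.7% and 20.4% of genes) and 1, 6 and 2 were lower (20.7%, 20.6% and 14.5% of genes). Xbp1 was lower at each step in Ngn3Cre of 24 somites (96.8, 94.5 and 73.2 CPM) and of 27 somites (208, 96.3 and 39.5 CPM), and higher at each step at 21 somites (164, 179 and 229 CPM). No member was higher at each step in all 5 pools.

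**Figure D3:**
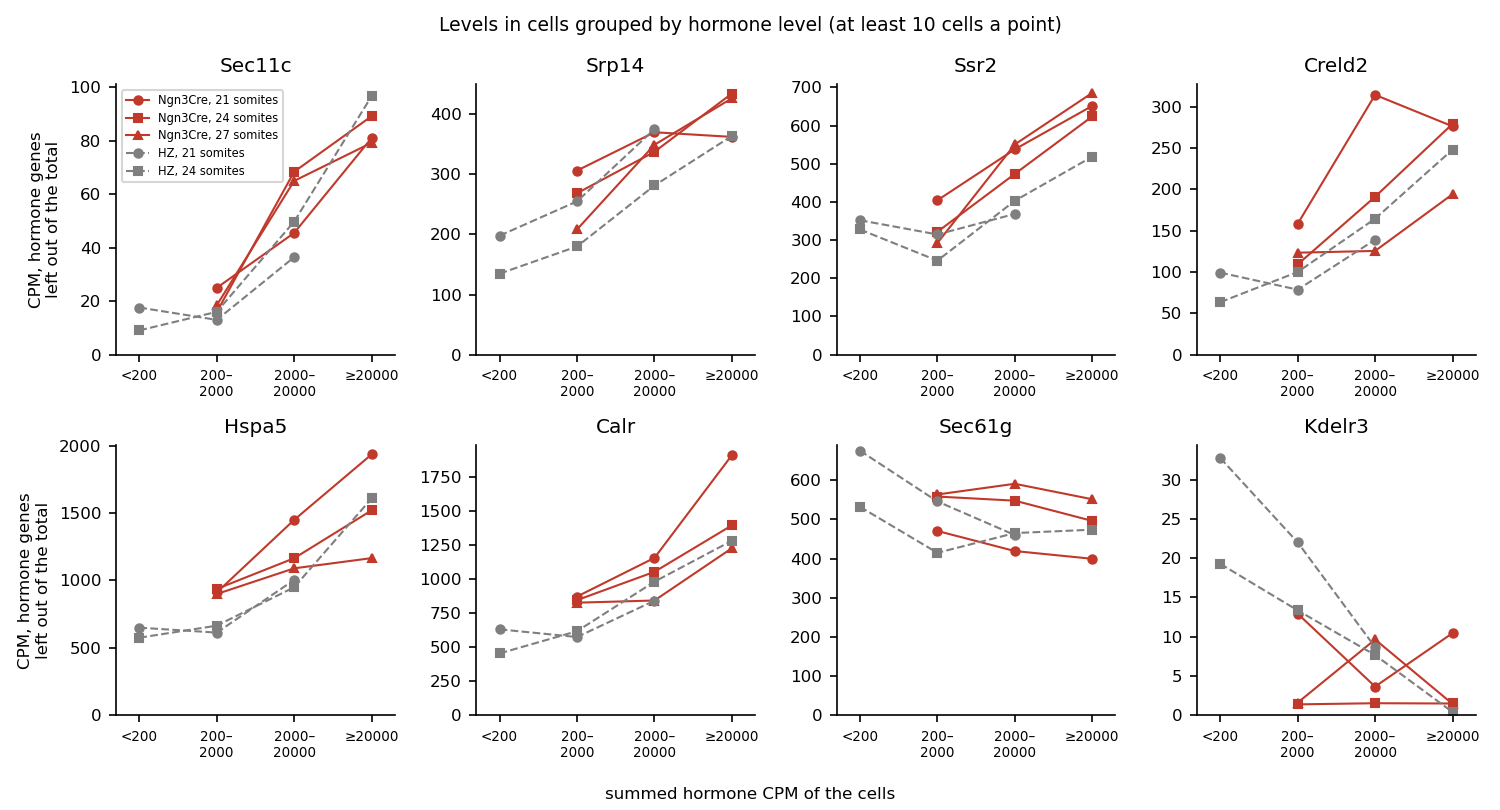
CPM, with hormone genes left out of the total, of 8 members in cells grouped by summed hormone level from low to high, for 3 Ngn3Cre pools (red, solid) and 2 HZ pools (grey, dashed), at least 10 cells a point. Sec11c climbs to 79.2 to 96.6 CPM in cells of 20000 hormone CPM or more. Sec61g lies between 399 and 675 CPM and is lower at each step in HZ of 21 and Ngn3Cre of 21 and 24 somites.

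Within single pools, the same was described cell by cell with Spearman's rho between a member and the summed hormone level, each cell thinned to 100000 reads. The median rho over the members with reads in at least 20% of cells was 0.17, 0.27 and 0.33 in HZ pools of 21, 24 and 27 somites and 0.16, 0.22 and 0.15 in Ngn3Cre pools of 21, 24 and 27, against -0.01 to 0.10 over all genes detected as widely. In HZ of 18 somites it was 0.01 (0.01 over genes), and in HM pools of 15, 18, 21 and 24 somites 0.05, 0.13, -0.06 and 0.13 (-0.04, 0.08, 0.02 and -0.00 over genes). A rho over 0.3 was found for 48.4% of members and 9.67% of genes in HZ of 24 somites (71 cells). It was found for 15.6% and 10.8% in HZ of 21 (132 cells) and 54.8% and 23.5% in HZ of 27 somites (26 cells). In Ngn3Cre of 21, 24 and 27 somites the shares were 29.0%, 41.9% and 41.9% of members, against 5.19%, 11.9% and 17.4% of genes. HM of 24 somites (73 cells) had 25% and 3.19%, HM of 15 (15 cells) 18.8% and 12.0%, and HM of 18 somites (15 cells) 18.8% and 20.8%. No member reached it in HZ of 18 and HM of 21 somites, against 6.79% and 5.14% of genes. Srp14 had the highest median over the 11 pools, at 0.45, and was positive in 9 of them, from -0.12 to 0.85. Sec11c lay between 0.38 and 0.59 in the 6 HZ and Ngn3Cre pools of 21 to 27 somites and between -0.12 and 0.07 in HZ of 18 somites and the 4 HM pools, where hormone reads were few. Sec61g was negative in 8 of 11 pools. Among hormone-high cells of 2000 CPM or more alone, a choice made after the data were seen, the members' median was 0.10 to 0.29 in 6 pools, against 0.03 to 0.05 over genes. Member and hormone reads of a cell come from the same library and depth. Over all cells used, hormone level itself correlated with depth at -0.41 in HZ of 21 and -0.42 in HZ of 24 somites. Among the hormone-high cells alone it did so at -0.09 and -0.17 in these pools.

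Whether the rise differs with the reporter was asked by subtracting the HZ difference from the Ngn3Cre difference. No gene passed among 15383 in edgeR (0%), 527 (3.43%) had an unadjusted p under 0.05, 1 member among them, and DESeq2 called 66 genes (0.429%) and no member. The median over members was -0.12 and over all genes 0.09. Creb3l2 had the smallest p (1.78 ± 0.59, unadjusted p = 0.0137, adjusted p = 1). It stood at 32.2 and 36.2 CPM in hormone-high Ngn3Cre cells, against 19.3 and 28.2 CPM in hormone-low Ngn3Cre cells, and at 18.5, 20.2 and 8.17 CPM in hormone-high HZ cells, against 40.8, 69.4 and 13.8 CPM in hormone-low HZ cells. At these limits the direction was thus opposite in the 2 Ngn3Cre and the 3 HZ pools. It depended on the limits: at 200 and 2000 CPM with 5 cells, Creb3l2 in Ngn3Cre of 24 somites was lower in hormone-high cells. It had 32.0 CPM there, against 50.6 CPM in hormone-low cells, which is the direction of the HZ pools.

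Which hormone the cells made was asked within cells of 2000 CPM or more, setting the 111 cells with Gcg (glucagon) at least 3 times Ghrl (ghrelin) against the 194 cells with the reverse. The pools with at least 10 of both were HZ of 24 (11 Gcg-led and 37 Ghrl-led cells) and Ngn3Cre of 21 (14 and 41), 24 (57 and 33) and 27 somites (18 and 19). Xbp1 fell in Gcg-led cells and no other member passed (1 of 33 lower, none higher; 1.62% of 14571 genes were called lower and 0.872% higher, 2.49% in all). It had 32.4, 96.0, 53.1 and 46.6 CPM in Gcg-led cells, in the order of pools just given, against 119, 238, 114 and 52.4 CPM in Ghrl-led cells. The value was lower in 4 of 4 pools, by the least at 27 somites, and the log2 fold change was -1.11 ± 0.25 (edgeR adjusted p = 0.0315). The edgeR adjusted p of Xbp1 was 0.235 without Ngn3Cre of 21 somites, 0.16 without Ngn3Cre of 24, 0.123 without HZ of 24 and 0.00166 without Ngn3Cre of 27 somites. Within the 3 Ngn3Cre pools alone, 3 other members fell: Hspa5 (-0.79), Hsp90b1 (-0.58) and Calr (-0.41), where 1.41% of genes were called lower. DESeq2 called Xbp1 and Herpud1 lower (3.4% of genes), the fit without the low-count filter these and Hsp90b1 and Hspa5 (2.46%), and limma on cell means none (3.17%).

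Herpud1 had 34.2, 73.1, 50.9 and 52.0 CPM in Gcg-led cells, against 63.9, 144, 68.3 and 90.0 CPM in Ghrl-led cells (-0.77 ± 0.21, edgeR adjusted p = 0.0767), lower in 4 of 4 pools. Hspa5 was lower in the 3 Ngn3Cre pools, at 1083, 1119 and 731 CPM in Gcg-led against 1827, 1735 and 1464 CPM in Ghrl-led cells, and higher in HZ, at 1401 against 1071 CPM (-0.51 ± 0.17). All 9 chaperones had a log2 fold change below 0, with a median of -0.26 against -0.04 over all genes, and none passed. The pools were split: all 9 were lower in Gcg-led cells in each Ngn3Cre pool, and 8 of 9 were higher in HZ of 24 somites, where the median over members was 0.26. The list as a whole leaned the same way, with 24 of the 31 members with a ratio above 0 in HZ of 24 somites. In Ngn3Cre of 21, 24 and 27 somites 6, 7 and 12 of 33 members lay above 0. Of the 8 translocon genes 6 had a log2 fold change above 0 and none passed, with Srp14 at 372, 394, 401 and 409 CPM in Gcg-led cells against 269, 333, 336 and 405 CPM in Ghrl-led cells (0.24 ± 0.13). Summed hormone level was not matched: its median was 18679 to 42873 CPM in Gcg-led and 8266 to 31161 CPM in Ghrl-led cells of these pools, higher in Gcg-led cells in 4 of 4, and its part in the difference was not tested.

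**Figure D4:**
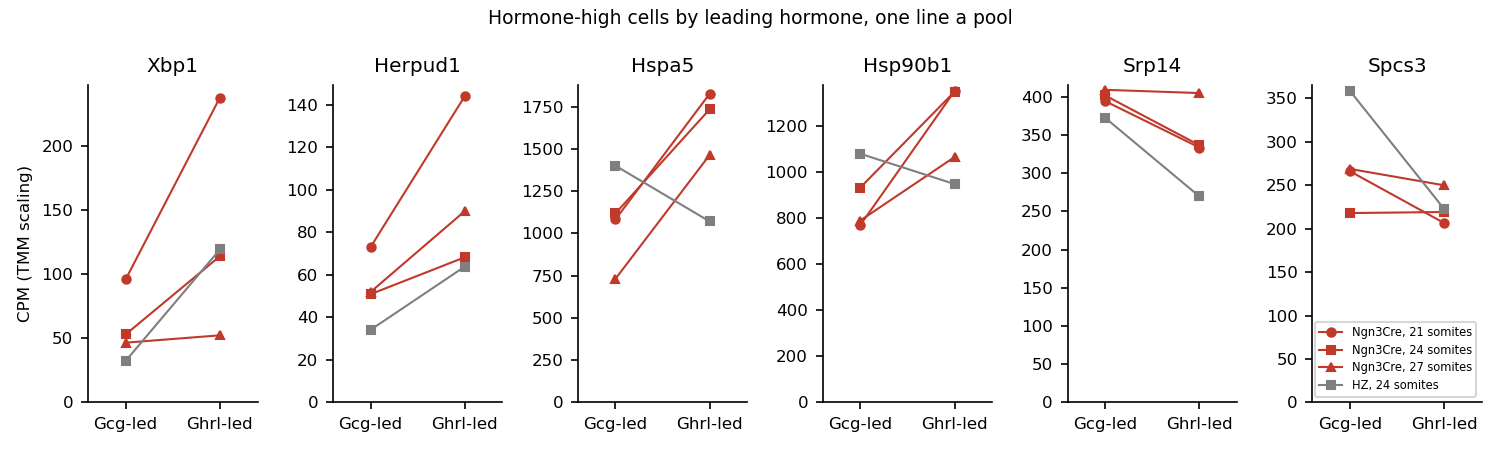
CPM (TMM scaling) of 6 members in Gcg-led (left) and Ghrl-led (right) hormone-high cells, 1 line a pool, 3 Ngn3Cre pools in red and the HZ pool of 24 somites in grey. Xbp1 and Herpud1 are lower in Gcg-led cells in all 4 pools, while Hspa5 and Hsp90b1 are lower in the Ngn3Cre pools and higher in the HZ pool.

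HM pools were compared with HZ pools, with stage as a factor, to ask what changes with GFP on both Neurog3 alleles. The tested HM and HZ pools shared the stages of 18, 21 and 24 somites. The HM pool of 15 somites was the only tested pool of its stage. It therefore does not inform the fold changes or p-values below, and its values are given as levels only. No member passed in edgeR (0 of 33, against 1.38% of 18420 genes called lower and 0.0923% higher, 1.47% in all). At an unadjusted p under 0.05 there were 2 members higher and 5 lower (13.4% of genes in either direction), and DESeq2 called 1, Manf, lower (5.82%). The median log2 fold change was -0.14 over the members and -0.09 over all genes. Manf had 276, 154, 255 and 168 CPM in HM pools of 15, 18, 21 and 24 somites, against 239, 318, 304 and 414 CPM in HZ pools of 18, 21, 24 and 27 (-0.67 ± 0.18, edgeR adjusted p = 0.135). The HM values reached into the range of the HZ values. Srp14 had 175, 167, 159 and 149 CPM in HM, against 188, 264, 223 and 288 CPM in HZ (-0.54 ± 0.17, edgeR adjusted p = 0.191), with every HM pool under every HZ pool. Atf4 had 101, 97.7, 87.8 and 89.0 CPM in HM, against 142, 139, 114 and 111 CPM in HZ (-0.52 ± 0.16, edgeR adjusted p = 0.173), also without overlap. Creb3l2 (0.62 ± 0.23) and Ero1l (0.53 ± 0.23) were the 2 higher at an unadjusted p under 0.05.

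Hormone-high cells, at 2000 CPM or more, made up 1.85% to 11.8% of HM pools and 9.84% to 62.4% of HZ pools. Among cells under 200 hormone CPM alone, in which HM and HZ shared 3 stages, the median was 0.08 over members and -0.05 over all genes. There 22 of 33 members were above 0, no member passed, and none had an unadjusted p under 0.05. Manf, Srp14 and Atf4 were called in edgeR neither there nor over all cells. No gene of 14865 passed in those cells (0%), and 2 residual degrees of freedom were left. The lack of a call there therefore cannot tell whether a difference was smaller than over all cells. Hepatic-like cells (1000 CPM or more over the 7 hepatic markers) numbered 20 in HM and 21 in HZ pools, and without them Manf fell in HM (1.91% of genes lower) and the members' median was -0.26. Without cells of any of the other markers Manf fell as well (1.77%). On means over cells of log2(CPM + 1), which give each cell the same weight, limma called 4 members lower, Manf, Sec11c, Srp14 and Xbp1 (4.53% of genes), and the same 4 on the TPM scale (4.15%).

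Ngn3Cre pools were set against the same HZ pools, with which they shared the stages of 21, 24 and 27 somites. No member passed in edgeR (0 of 33, against 0.331% of genes called lower and 0.00543% higher, 0.337% in all). At an unadjusted p under 0.05, 10 were higher and 1 lower (10.5% of genes in either direction), and DESeq2 called 1, Ssr1, higher (1.17%). The median was 0.37 over the members and -0.02 over all genes, and 25 of 33 lay above 0 (75.8%, against 48.8% of all genes). Ssr1 had 631, 1291 and 1164 CPM in Ngn3Cre pools of 21, 24 and 27 somites, against 511, 512, 478 and 725 CPM in HZ pools (0.96 ± 0.29, edgeR adjusted p = 0.239). Herpud1 had 101, 46.9 and 60.9 CPM in Ngn3Cre, against 23.6, 38.1, 43.4 and 30.9 CPM in HZ (0.84 ± 0.26, edgeR adjusted p = 0.24). Calr had 1169, 1074 and 949.8 CPM in Ngn3Cre, against 705, 709, 772 and 859 CPM in HZ (0.44 ± 0.14, edgeR adjusted p = 0.26). In Herpud1 and Calr the Ngn3Cre pools lay above all HZ pools, and in Ssr1 the pool of 21 somites did not. Kdelr3 ran the other way, at 9.00, 4.37 and 3.18 CPM in Ngn3Cre, against 27.3, 21.9, 10.8 and 5.14 CPM in HZ (-1.33 ± 0.47, edgeR adjusted p = 0.307), and it fell where cells of other markers were left out (2.16% of genes lower).

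The Ngn3Cre pool of 21 somites held the highest level of the 11 pools for Hspa5 (1309 CPM), Xbp1 (179 CPM), Ddit3 (41.0 CPM), Herpud1 (101 CPM), Dnajb9 (51.9 CPM) and Dnajc3 (105 CPM), among others. Hormone-high cells made up 56.6% to 71.0% of Ngn3Cre pools. Among cells of 2000 hormone CPM or more alone, a choice made after the data were seen, the median over members was 0.15 against 0.04 over all genes, 4 members were higher and 1 lower at an unadjusted p under 0.05 and none passed. On means over cells of log2(CPM + 1) the members' median was 0.06 and Ssr1 rose (0.704% of genes). The HM and Ngn3Cre comparisons share the HZ pools, so their values are not independent of each other.

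**Figure D5:**
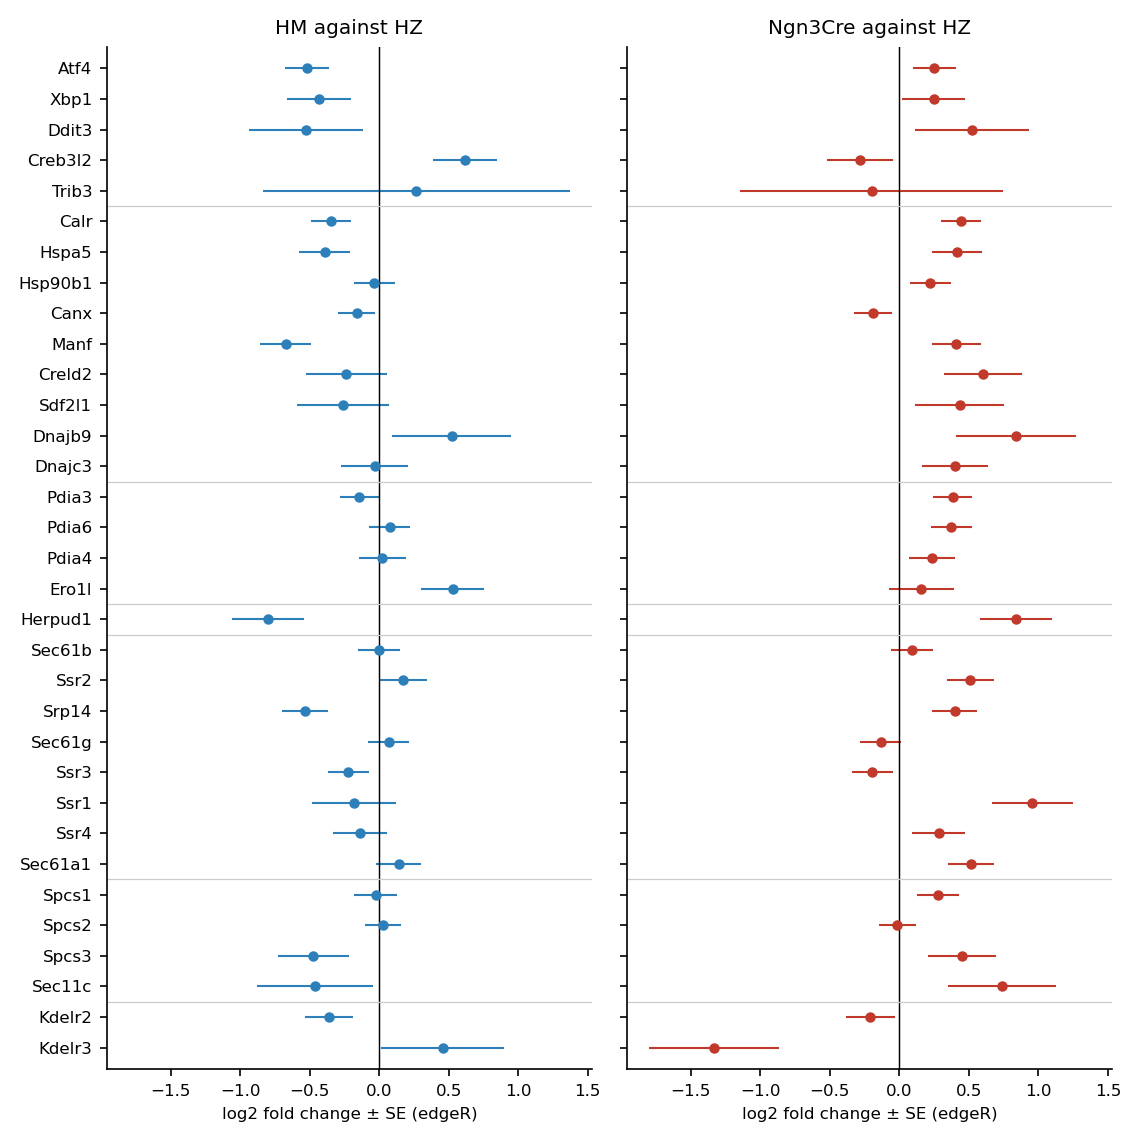
Log2 fold change ± SE (edgeR, over pools with stage as a factor) of the 33 genes for HM against HZ (left) and Ngn3Cre against HZ (right), by role. No gene passes the adjusted threshold in either panel, and the medians are -0.14 and 0.37.

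No trend with stage passed the test. Over the 11 pools, no gene of 16478 was called in edgeR (0%), and 3 members had an unadjusted p under 0.05 (8.36% of genes), Kdelr3 (-0.16 ± 0.06 per somite on the log2 scale), Spcs2 (-0.04 ± 0.02) and Atf4 (-0.04 ± 0.02). DESeq2 called 292 genes (1.77%) and no member. The slope of HM minus that of HZ was likewise called in no gene of 16207 in edgeR, with 4 members lower at an unadjusted p under 0.05 (7.6% of genes), and DESeq2 called 1 member lower, Spcs3 (0.327%). Spcs3 had 167, 77.0, 88.2 and 79.9 CPM in HM pools of 15, 18, 21 and 24 somites, against 63.6, 111, 185 and 191 CPM in HZ pools of 18, 21, 24 and 27 (difference of slopes -0.29 ± 0.07 per somite, edgeR adjusted p = 0.642). Hspa5 had 820.5, 599.7, 704 and 547 CPM in HM, against 642, 786, 858 and 1101 CPM in HZ (-0.14 ± 0.04 per somite, edgeR adjusted p = 0.642). Both were highest in HM at 15 somites and highest in HZ at 27. HM slopes ran over 15 to 24 somites and HZ slopes over 18 to 27, with no tested HZ pool at 15. The HM pool of 15 somites held 16 cells, and its Spcs3 value lay far from those of the other HM pools.

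The wider secretory pathway was read through 101 further genes in 6 lists. In hormone-high against hormone-low cells, 28 of the 98 tested rose and 3 fell, against 9.2% and 9.86% of all genes. The 4 of 18 folding genes, 3 of 14 targeting genes and 4 of 18 sensors and regulators called lie near the 19.1% of all genes called in either direction. Of 16 degradation genes 7 rose and 1 fell, among the rises Edem2 (1.05 ± 0.19), a lectin that marks glycoproteins for disposal, and Sel1l (1.26 ± 0.23), the scaffold of the ubiquitin ligase there. Of 20 genes of ER to Golgi transport 7 rose, led by the cargo receptor Tmed10 (1.01 ± 0.16), with the coat genes Sec24a (0.95 ± 0.20), Sec13 (0.64 ± 0.15) and Copb1 (0.62 ± 0.16). Of 12 glycosylation genes 4 rose and 1 fell: Tusc3 rose by 1.38 ± 0.19, Ddost by 0.68 ± 0.13 and Dad1 by 0.65 ± 0.13, while Stt3b, a catalytic subunit of oligosaccharyltransferase, fell by 0.74 ± 0.14 on the log2 scale. Of 14 further targeting genes 3 rose, Srp9 (0.75 ± 0.16), the partner of Srp14, with Srp72 (0.59 ± 0.16) and the receptor subunit Srpr (0.71 ± 0.21). Of 18 further folding genes 3 rose and 1 fell, with Dnajb11 (1.16 ± 0.19), Ero1lb (1.82 ± 0.37), the oxidase known from pancreatic islets, and Erp29 (0.88 ± 0.18) higher and Clgn, a calnexin homologue best known from the testis, lower, at most at 0.3 CPM in hormone-high and at 1.57 to 26.7 CPM in hormone-low cells. Of 18 sensors and regulators 4 rose, Sesn2 (3.93 ± 0.41; 98.6 to 235 CPM in hormone-high and 3.86 to 21.9 CPM in hormone-low cells), Creb3 (1.51 ± 0.24), Asns (1.08 ± 0.26) and Mbtps1 (0.62 ± 0.19), the protease that releases ATF6.

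In Gcg-led against Ghrl-led cells 3 of 97 further genes passed: Sesn2 (0.93 ± 0.20) and Dnajc1 (1.5 ± 0.30) rose and Sec13 fell by 0.60 ± 0.13 on the log2 scale. That share is near the 2.49% called among all genes. No further gene of 101 passed in edgeR for HM against HZ or for Ngn3Cre against HZ, where 3 and 14 were higher and 12 and 3 lower at an unadjusted p under 0.05 (13.4% and 10.5% of all genes in either direction).

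Beside the promoter letters, 5 of the 7 members with an ERSE rose in hormone-high cells (Calr, Creld2, Dnajc3, Hsp90b1 and Hspa5) and 2 did not pass (Canx and Pdia6). Of the 18 members whose window held none of the 4 motifs, 4 rose, Pdia3, Srp14, Ssr1 and Ssr4. Of the 6 members with no promoter sequence, 4 rose as well, Manf, Sec11c, Spcs3 and Ssr2. Among all genes tested 9.2% were called higher. Herpud1, with ERSE-II, rose, and Kdelr3, with a TGACGTG core 29 bases upstream in the reverse direction, did not pass and lay lower in 5 of 5 pools. These counts are a description of genes chosen by name.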

How the data were processed

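Smart-seq3xpress libraries of 830 cells were used. The authors deposited whole-number counts per gene and cell, not normalized, and a table of TPM values that the authors scaled within each cell. The submitters' processing notes list HISAT2 2.1.0, Trimmomatic 0.39 and FastQC 0.11.9 and the builds GRCm38 and mm10. How reads were counted, by which annotation, strand or molecular identifiers, is not stated in the labels or files. No column of either table was left unused, no cells had identical counts and no doublet caller was run. Counts were summed per genotype and stage (pools of at least 10 cells), and also per hormone class or leading hormone within a pool. The test was edgeR 4.0.16 (R 4.3.3; quasi-likelihood, TMM scaling, default filter on low counts, Benjamini-Hochberg adjustment over all genes at 0.05), with stage or pool as a factor. Alternatives were DESeq2 1.42.0, limma 3.58.1 on means over cells of log2(CPM + 1) or log2(TPM + 1), other scaling and filters, and fits without single pools or kinds of cells. Hormone limits of 200 and 2000 CPM left 2 pools, fewer than the 3 set as the minimum for the main test, which therefore used 500 and 5000, picked for its 5 pools. Fits on 2 pools, with 1 residual degree of freedom, are reported only as alternatives. Copies were sought with BLAST 2.17.0 in GENCODE transcripts (at least 95% identity over 150 bases). All 33 members, up to 4 called genes of each further list and Neurog3 are named. The members and lists were chosen with earlier results of these data known.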

Additional observations from a re-analysis of the deposited data

Results flagged for a closer look

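Among 130 sets of 4 or 5 pool values of the members, 10 held a value far from the rest by Dixon's test, where chance gives about 1 in 20. In HM pools, Dnajc3 stood at 89.2 CPM at 21 somites (42.8 to 50.5 CPM in the other 3), Spcs3 at 167 CPM at 15 somites (77.0 to 88.2 CPM) and Kdelr2 at 1094 CPM at 15 somites (472 to 559.8 CPM). In HZ pools, Dnajc3 was low at 51.0 CPM at 24 somites (57.5 to 58.6 CPM), Trib3 high at 6.98 CPM at 21 somites (1.75 to 2.09 CPM), Sec61a1 high at 163 CPM at 18 somites (119 to 122 CPM) and Ssr1 high at 725 CPM at 27 somites (478 to 512 CPM). The log2 ratio of hormone-high over hormone-low cells was far from the rest for Pdia4 in Ngn3Cre of 21 somites (1.05, against -0.03 to 0.27) and for Sec11c in HZ of 21 somites (1.29, against 2.36 to 2.65). The log2 ratio of Gcg-led over Ghrl-led cells was far from the rest for Pdia3 in HZ of 24 somites (0.39, against -0.28 to -0.25).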

How the results depend on the processing

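The count of members lower in HM was 0 in edgeR, 1 with DESeq2, without hepatic-like cells and, added later, without cells of other markers, and 4 on means over cells of log2 CPM or log2 TPM. For Ngn3Cre against HZ, 1 member was higher with DESeq2 and on cell means of log2 CPM, and 1, Kdelr3, was lower without cells of other markers. DESeq2 called 1 member lower for the difference of slopes. For hormone-high cells, members higher numbered 14, and 2 and 1 at the limits of 200 and 2000 CPM (5 cells) and 100 and 1000 CPM; 2 were lower at 200 and 2000 CPM with 2 pools, added later, and 1 was lower at 100 and 1000 CPM, with DESeq2, on cell means and without cells of other markers. Leaving out each pool gave 9 to 13, with 844 to 1294 of all genes called higher, against 1415 in the main fit. Members higher in every pool numbered 23 at 200 and 2000 CPM, 11 at 100 and 1000 CPM, 16 at 500 and 5000 CPM and 5 with 5 cells. The share of all genes higher in every pool was not counted. For Gcg-led cells, members lower numbered 2 with DESeq2, 4 without the low-count filter, 0 on cell means and 0 to 3 without 1 pool. In those fits without 1 pool, 101 to 229 of all genes were called lower, against 236 in the main fit. Between genotypes, no paired analysis was possible because the numbers shared by groups only count cells within a pool; the hormone classes and leading hormones were compared within pools. Ngn3Cre against HZ was not run in cells under 200 hormone CPM, since no Ngn3Cre pool held 10. Depth limits Trib3 and Kdelr3, each with 0 reads in a pool or class.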
